A study of Homo sapiens with 10 samples.

Results

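The genes described here are 10 members of a pair of families of calcium-regulated proteins, taken from a list of names: the S100 genes S100A4, S100A6, S100A10, S100A11, S100A13 and S100A16, and the annexins ANXA1, ANXA2, ANXA3 and ANXA5. All 10 listed names had a row among the 12373 genes of the deposited matrix. Cells of Kuramochi, an established human ovarian cancer line labelled epithelial and BRCA2-mutant, were profiled by inDrop, in which droplets join cells to barcoded beads and each captured transcript end is counted by a unique molecular identifier (UMI). The 10 populations, each a library of its own, were untreated (C) or kept in olaparib, an inhibitor of the repair enzyme PARP, at 1 (T1), 2.5 (T2.5), 5 (T5), 10 (T10), 20 (T20), 40 (T40), 80 (T80), 160 (T160) or 320 µM (T320). All populations carry the BRCA2 mutation and belong to 1 stepwise escalation in 1 line, so that the drug dose, the time in culture, the library and the place in the series cannot be told apart.

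S100 proteins are small EF-hand proteins that pair up and, for most members, expose a binding surface when calcium binds. Annexins bind acidic phospholipids when calcium rises and help to organise, fuse and reseal membranes. The families meet in complexes: S100A10 holds ANXA2 at the inner face of the plasma membrane, and S100A11 binds ANXA1. Most S100A genes lie together in the epidermal differentiation region of chromosome 1, whereas each annexin here lies apart from that region.

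On GRCh38 with the GENCODE 29 annotation, S100A10 (chr1:151982915-151994390) and S100A11 (chr1:152032506-152047907) form 1 pair, 38.1 kb apart. S100A6 (chr1:153534599-153536244), S100A4 (chr1:153543613-153550136), S100A16 (chr1:153606886-153613145) and S100A13 (chr1:153618787-153631360) form a second group 1487 kb further on. All 6 are read from the minus strand, and S100A6 and S100A4 are separated by 7.37 kb. ANXA1 lies on chromosome 9 (73151757 to 73170393), ANXA2 on chromosome 15 (60347134 to 60402883), and ANXA3 (78551519 to 78610451) and ANXA5 (121667955 to 121697113) on chromosome 4.

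Promoter windows of 250 bases before and 50 bases after the annotated start are shown for 4 S100A genes: S100A4 and S100A16, the pair with the lowest differences from C in T320, S100A6, the neighbour of S100A4 with a higher level in T320 than in C, and S100A10, the partner of ANXA2. They were taken from RefSeq on GRCh38.p14 and are written 5′ to 3′ with CpG dinucleotides in capitals.
S100A4 (chr1:153545757-153546056, minus strand): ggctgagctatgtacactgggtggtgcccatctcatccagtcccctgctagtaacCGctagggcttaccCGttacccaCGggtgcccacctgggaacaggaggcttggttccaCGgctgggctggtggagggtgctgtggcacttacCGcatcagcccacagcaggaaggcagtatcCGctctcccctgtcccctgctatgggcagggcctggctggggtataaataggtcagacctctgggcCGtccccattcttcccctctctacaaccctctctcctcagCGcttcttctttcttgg
S100A6 (chr1:153535942-153536241, minus strand): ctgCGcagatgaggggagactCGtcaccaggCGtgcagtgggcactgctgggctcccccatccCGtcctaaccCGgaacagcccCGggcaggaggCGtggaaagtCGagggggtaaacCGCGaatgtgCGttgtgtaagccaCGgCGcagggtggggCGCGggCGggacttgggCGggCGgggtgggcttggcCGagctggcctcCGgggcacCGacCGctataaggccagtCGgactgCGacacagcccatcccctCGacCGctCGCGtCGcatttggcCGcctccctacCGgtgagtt
S100A10 (chr1:151993810-151994109, minus strand): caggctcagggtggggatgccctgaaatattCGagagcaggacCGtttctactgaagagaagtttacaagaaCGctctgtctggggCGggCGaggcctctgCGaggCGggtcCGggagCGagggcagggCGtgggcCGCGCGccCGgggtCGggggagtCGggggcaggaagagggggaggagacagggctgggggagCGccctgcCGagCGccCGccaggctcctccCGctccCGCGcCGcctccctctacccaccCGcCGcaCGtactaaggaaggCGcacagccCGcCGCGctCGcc
S100A16 (chr1:153613088-153613387, minus strand): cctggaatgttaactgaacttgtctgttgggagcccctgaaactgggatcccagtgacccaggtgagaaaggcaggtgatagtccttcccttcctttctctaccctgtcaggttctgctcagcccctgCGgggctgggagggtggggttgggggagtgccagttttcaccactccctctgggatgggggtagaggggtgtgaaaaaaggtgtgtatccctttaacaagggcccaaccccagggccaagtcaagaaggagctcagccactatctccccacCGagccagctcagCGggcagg
The windows of S100A6 and S100A10 held 31 and 32 CpG dinucleotides, against 8 in that of S100A4 and 3 in that of S100A16, for which RefSeq gives another start with 8. Over all 35116 RefSeq windows the median was 14, with quartiles of 4 and 28. Among the members not printed, the window held 22 CpG dinucleotides for S100A11, 19, 11 and 12 at the starts of S100A13, and 25 for ANXA3. It held 0 for ANXA1, 32 for ANXA2 and 36 for ANXA5. S100A11 and ANXA3, which fell along the escalation (below), thus lay above the median, and ANXA1, which did not fall, lay below it. A link between CpG count and course was not tested. GC content was 69.3% for S100A6, 71.7% for S100A10, 60.7% for S100A4 and 58.3% for S100A16, beside a median of 58.7% over all windows. On either strand the letters TATAAA occurred in the window of S100A4 and not in the other 3, and 11.5% of all windows held them. The letters GGGCGG occurred 3 times in the window of S100A6, 1 time in that of S100A10 and in neither of those printed for S100A4 and S100A16 (45% of all windows). These matches describe letters only, and methylation was not analysed here.

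Library totals ran from 1976069 UMIs in T5 to 9343704 in C, and 18209 cells were summed. The median cell held 1145 UMIs in T2.5 and 2974.5 in T80, the extremes among the 10 populations. Mitochondrial genes took 7.08% to 9.31% of the UMIs of the treated populations and 11.5% in C. Of 17195 distinct cell barcodes, 970 occurred in more than 1 population, with 3 to 53 shared by a pair of libraries and 147456 barcodes possible in all. The epithelial markers (6 of 7 with a row) summed to 411 CPM in T320 and 290 to 2075 over the treated populations, against 1622 in C, and rested on KRT8 and KRT18: EPCAM and MUC16 were at 5.64 CPM or less in every population and CDH1 had no row. Markers of the Müllerian lineage (5 of 5) summed to 247 CPM in T320 and 184 to 1072 over the treated populations, against 932 in C. By the trend test described below 4 of the 5 fell, beside 8.99% of all tested genes. PAX8 had 160 CPM in T320 and 299 in C, SOX17 37.5 in T320 and 390 in C, and WT1 0 in T320 and 135 in C. Fibroblast markers (4 of 7) summed to 144 to 2269 CPM in the treated populations, against 69.7 in C, with the peak in T5 made mostly by COL3A1. Leukocyte markers (2 of 7) summed to at most 43.9 CPM and endothelial markers (3 of 5) to at most 14.3. Their part in the results below was not tested.

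Levels are UMIs per 1000000 of the population's summed UMIs (CPM), with all cells of a population added up. A UMI stands for a captured transcript end whatever the length of the gene, so that levels were not divided by length. In such sums, fewer cells carrying a transcript and less of it per cell cannot be told apart. Along the escalation 4 of the 6 S100A genes fell (S100A4, S100A11, S100A13 and S100A16), and so did 1 of the 4 annexins, ANXA3, the least abundant of the 10. S100A6 and S100A10 had adjusted p-values above the threshold, as had ANXA1, ANXA2 and ANXA5, and no member rose. The slope over the steps of the escalation (0 to 9) was tested by edgeR's quasi-likelihood method, with Benjamini-Hochberg adjustment over 11387 genes and a threshold of 0.05. By the same test 8.03% of all tested genes rose (914) and 8.99% fell (1024), while scaling by library size in place of TMM gave 1255 and 755. Steps of 1 escalation are not independent samples, and the p-values do not allow for that.

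**Figure D1:**
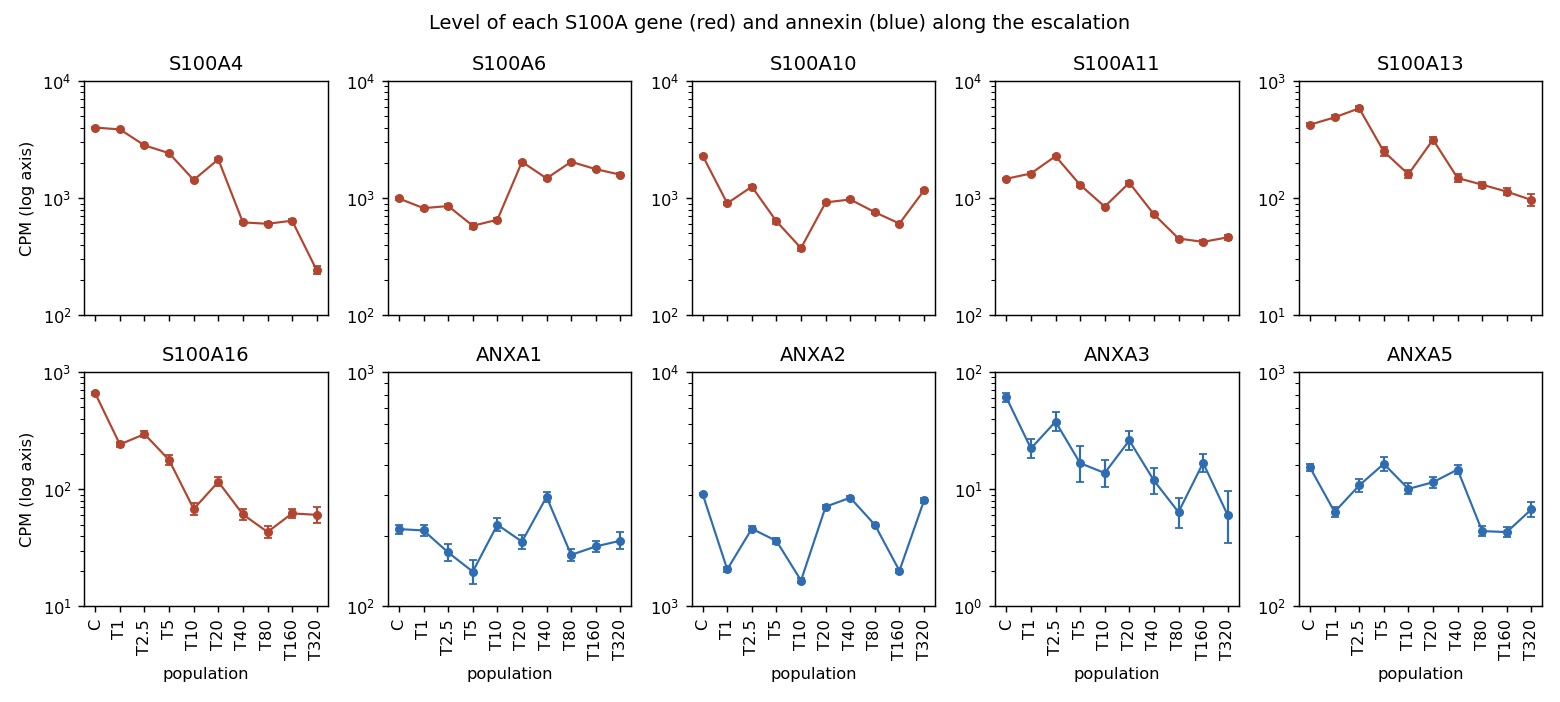
CPM on a log axis of the 6 S100A genes (red) and the 4 annexins (blue) in the 10 populations, from untreated (C) to 320 µM olaparib (T320), with exact Poisson 95% intervals that cover counting error only. S100A4, S100A11, S100A13, S100A16 and ANXA3 end well below their level in C, S100A6 stays above its level in C from T20 on, and ANXA1, ANXA2 and ANXA5 end nearer to it.

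S100A4, which binds non-muscle myosin and is known for its link to cell motility and metastasis, was the most abundant member in untreated cells and lay further below C in T320 than any other member. In each population from T1 to T160, S100A16 lay further below C than S100A4 did; in T80 the log2 differences were -3.65 for S100A16 and -2.71 for S100A4, and without T320 the slope was -0.46 per step for S100A16 and -0.39 for S100A4. It had 4005 CPM in C, 3867 in T1, 2825 in T2.5 and 2421.5 in T5, then 1431.5 in T10, 2145 in T20 and 621.5 in T40, and 605 in T80, 643 in T160 and 243 in T320. The 6 populations from C to T20 all lay above the 4 from T40 to T320, with the largest drop at the step into T40 (-1.77 on the log2 scale). In the order of levels, the counting intervals of T160 and T40, and of T40 and T80, overlapped. Its slope was -0.44 log2 per step (SE 0.0555; adjusted p = 0.00139 by edgeR). S100A4 was 16.5 times lower in T320 than in C (15.3 to 17.8, counting error only), a difference of -3.99 in log2(CPM + 10).

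S100A6, or calcyclin, which binds the ubiquitin-ligase partner CACYBP, had another course, although it is the nearest member to S100A4 on the chromosome. Its level was 994 CPM in C, 822 in T1, 857 in T2.5 and 582 in T5, then 654 in T10, 2042 in T20 and 1476.5 in T40, and 2045 in T80, 1769.5 in T160 and 1587 in T320. The 4 lowest populations were T1 to T10, and the 5 highest were T20 to T320, so that the treated populations split at the step into T20, where the difference from the preceding population was 1.63 on the log2 scale. The slope was 0.13 per step (SE 0.0577) with an unadjusted p of 0.0390 and an adjusted p of 0.131 by edgeR, which missed the threshold. In T320 the level was 1.6 times that of C (1.54 to 1.65).

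S100A10, also called p11, lacks calcium binding and is known mainly as the light chain of the ANXA2 complex that gathers plasminogen at the cell surface. It had 2309 CPM in C, 904.5 in T1, 1254 in T2.5 and 635 in T5, then 375 in T10, 920 in T20 and 976 in T40, and 759 in T80, 608 in T160 and 1167 in T320. C was the highest population, and the course dipped to T10 before it climbed again. The slope was -0.12 per step (SE 0.0607, adjusted p = 0.210 by edgeR), and without C the adjusted p was 0.861 with a slope of -0.0192. T320 was 1.98 times lower than C (1.91 to 2.05).

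S100A11, known as calgizzarin and as the partner of ANXA1, peaked early. The level was 1465 CPM in C, 1625 in T1, 2284 in T2.5 and 1298.5 in T5, then 848 in T10, 1354 in T20 and 729 in T40, and 453 in T80, 424 in T160 and 463.5 in T320. The last 4 populations were the lowest, and the counting intervals of T320, T80 and T160 overlapped along that order. The slope was -0.28 per step (SE 0.0499; adjusted p = 0.00531 by edgeR), and T320 was 3.16 times lower than C (2.99 to 3.35). In the populations from C to T80 alone the adjusted p was 0.0558, short of the threshold, in a fit in which 3.68% of 11156 genes rose and 4.63% fell. The last 500 bases of its transcripts share 10% of their 31-mers with other annotated genes, among them the copies S100A11P1 and S100A11P2.

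S100A13 takes part in the unconventional release of the growth factor FGF1. It had 424 CPM in C, 490 in T1, 585 in T2.5 and 250.5 in T5, then 160 in T10, 316 in T20 and 149 in T40, and 130 in T80, 114 in T160 and 96.6 in T320. The order of its populations was that of S100A11 except among the last 3, with the highest levels in T2.5, T1 and C. The slope was -0.31 per step (SE 0.0492; adjusted p = 0.00323 by edgeR), and T320 was 4.39 times lower than C (3.88 to 4.98). These values are uncertain in 1 respect: 47% of the 31-mers at its transcript ends occur in AL162258.1, and its annotated span overlaps that of S100A1, so that reads could be split between them.

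S100A16, a widely expressed member of the family, had its largest downward step at the start. It had 657 CPM in C, 241 in T1, 296 in T2.5 and 178 in T5, then 67.8 in T10, 116 in T20 and 61.0 in T40, and 43.2 in T80, 62.2 in T160 and 60.5 in T320. C lay far above all treated populations, and T10, T160, T40 and T320 had overlapping counting intervals in that order. The slope was -0.41 per step (SE 0.0530; adjusted p = 0.00142 by edgeR), and without C it was -0.34 with an adjusted p of 0.00527. T1 was 2.72 times lower than C (2.56 to 2.89), and T320 10.9 times lower (9.32 to 12.7).

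ANXA2, the membrane-binding heavy chain of the S100A10 complex, was the most abundant annexin and the second most abundant member in C. It had 3016 CPM in C, 1439 in T1, 2145 in T2.5 and 1903 in T5, then 1290 in T10, 2664 in T20 and 2909 in T40, and 2230 in T80, 1419 in T160 and 2832.5 in T320. Low values in T1, T10 and T160 alternated with high ones in C, T20, T40 and T320, and the slope was -0.00874 (SE 0.0519, adjusted p = 0.927 by edgeR). T320 was 1.06 times lower than C (1.04 to 1.09).

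ANXA1, a mediator of the anti-inflammatory action of glucocorticoids, stayed within a narrow band. Its level was 214 CPM in C, 211 in T1, 170 in T2.5 and 141 in T5, then 223 in T10, 189 in T20 and 293 in T40, and 166 in T80, 180 in T160 and 191 in T320. T40 was highest and T5 lowest, 2.08 times apart, and 8 of the 9 neighbouring pairs in the order of levels had overlapping counting intervals. The adjusted p was 0.732 by edgeR.

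ANXA5, which binds exposed phosphatidylserine and is used to stain dying cells, had 392 CPM in C, 253 in T1, 328 in T2.5 and 406 in T5, then 317 in T10, 339 in T20 and 383.8 in T40, and 210 in T80, 208 in T160 and 259 in T320. The lowest populations were T160, T80, T1 and T320. Its slope was -0.085 per step (SE 0.0385; adjusted p = 0.149 by edgeR), and T320 was 1.51 times lower than C (1.39 to 1.64).

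ANXA3, an annexin found in neutrophil granules and studied in ovarian cancer, was scarce. It had 60.8 CPM in C, 22.3 in T1, 37.8 in T2.5 and 16.7 in T5, then 13.8 in T10, 26.1 in T20 and 11.9 in T40, and 6.38 in T80, 16.8 in T160 and 6.02 in T320. C stood above all treated populations, and 7 of the 9 neighbouring pairs in the order of levels had overlapping counting intervals. The slope was -0.29 per step (SE 0.0605; adjusted p = 0.00929 by edgeR). Without C the slope was -0.24 with an adjusted p of 0.0517, so the call rested on the untreated library. T320 was 10.1 times lower than C (6.26 to 17.5).

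Set side by side, the S100A genes had the lower median difference from C at every dose from T5 on. In T320, 4 of the 6 S100A genes were lower by at least 1 in log2(CPM + 10) and 0 were higher, with a median of -1.83, and 1 of the 4 annexins was lower, with a median of -0.37. Among the 4617 genes with at least 100 UMIs in all and 50 CPM in T320 or C, 11.6% were lower by that much, 15.4% were higher and the median was 0.12. ANXA3 reached the minimum only through its level in C, so that its place among the lower genes follows in part from the minimum. In T80, 5 of the 6 S100A genes were lower and 1, S100A6, was higher, with a median of -1.65, and the annexins had a median of -0.65 with 1 lower. S100A16, at 43.2 CPM in T80, and ANXA3, at 6.38 CPM, reached the minimum there only through their levels in C. In that comparison 13% of 4206 genes were lower, 9.25% were higher and the median was -0.13. With 1 library per population these differences carry no test, and the difference between the families was not tested.

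At the lowest dose the families stood the other way round. In T1 the median difference from C was -0.84 over the annexins and -0.16 over the S100A genes, with S100A10, S100A16, ANXA2 and ANXA3 lower by at least 1, in a comparison in which 4.83% of 4186 genes were lower and 7.57% were higher. ANXA3, at 22.3 CPM in T1, reached the minimum only through its level in C, so that its place among the lower genes follows in part from the minimum. At T40 the medians were -1.34 for the S100A genes and -0.0401 for the annexins. The choice of scaling moved all of the T320 differences together: TMM factors put the median of all measured genes at -0.14 and DESeq2 size factors at -0.10, in place of 0.12. Under TMM, S100A10 in T320 was at -1.26, past the line that it missed at -0.98, and S100A6 was at 0.39 in place of 0.67. S100A6 in T80, at 1.03, stood just past that line and was at 0.98 without mitochondrial genes and 0.80 with the mean of per-cell CPM.

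Added up, the 6 S100A genes had 9854 CPM in C, 7949 in T1, 8101 in T2.5 and 5365 in T5, then 3537 in T10, 6893 in T20 and 4012 in T40, and 4035.5 in T80, 3620 in T160 and 3617 in T320. The 4 annexins had 3682.5 CPM in C, 1925 in T1, 2681 in T2.5 and 2466 in T5, then 1844 in T10, 3218 in T20 and 3598 in T40, and 2611 in T80, 1824 in T160 and 3289 in T320. The S100A sum stayed above the annexin sum in every population, but the ratio ran between 4.13 in T1 and 1.10 in T320 and was 2.68 in C. T320 was 2.72 times lower than C in the S100A sum (2.67 to 2.78) and 1.12 times lower in the annexin sum (1.09 to 1.15).

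The S100A sum also differed in its make-up. S100A4 took 6.71% of the S100A UMIs in T320, against 40.6% in C, and S100A6 took 43.9% in T320, against 10.1% in C. S100A10 took 32.3% in T320 and 23.4% in C, while S100A16 took 1.67% in T320 and 6.66% in C. For each S100A4 UMI there were 0.248 UMIs of S100A6 in C, 0.213 in T1, 0.303 in T2.5 and 0.240 in T5, then 0.457 in T10, 0.952 in T20 and 2.38 in T40, and 3.38 in T80, 2.75 in T160 and 6.54 in T320. The order of this pair of neighbouring genes thus crossed between T20 and T40.

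**Figure D2:**
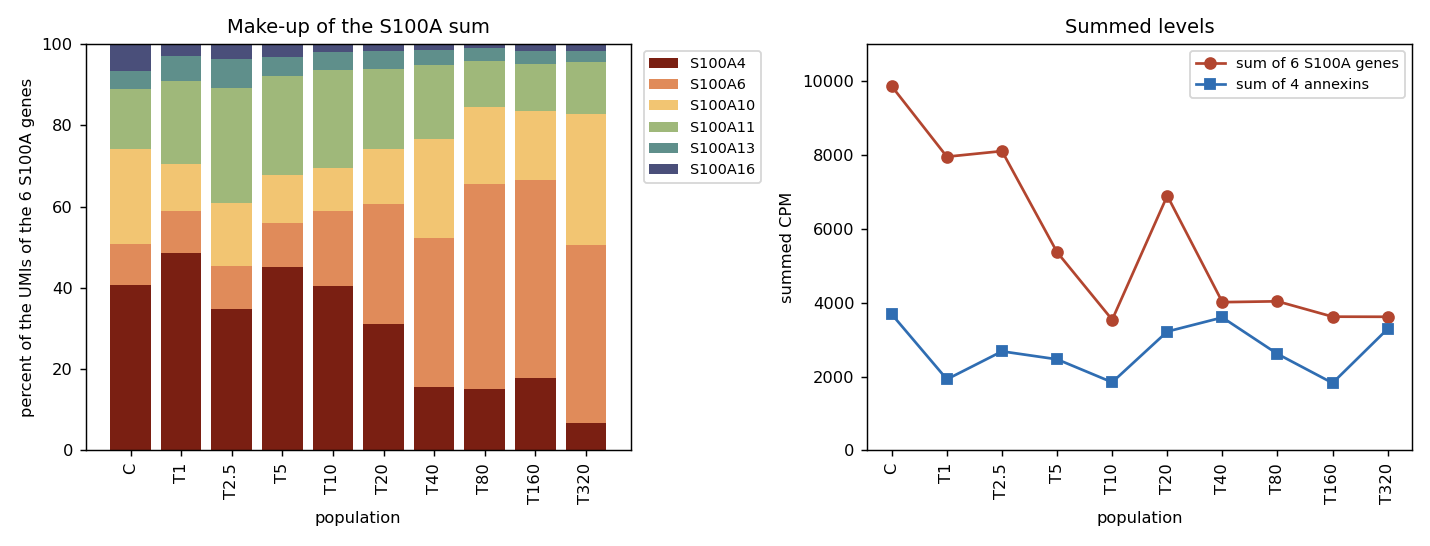
Left, percent of the UMIs of the 6 S100A genes taken by each gene in each population. Right, summed CPM of the 6 S100A genes (circles) and the 4 annexins (squares). The S100A4 share is 6.71% in T320 and 40.6% in C, the S100A6 share 43.9% in T320 and 10.1% in C, and the sums come closest in T320, at 3617 and 3289 CPM.

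S100A10 and ANXA2, whose products form 1 complex, shared the dips at T1 and T10 and the return at T20. Their levels in log2(CPM + 10) had a Pearson r of 0.75 over the 10 populations, given as a description because the populations share 1 escalation and differ in depth. The ratio of S100A10 to ANXA2 UMIs was 0.766 in C, 0.629 in T1, 0.585 in T2.5 and 0.334 in T5, then 0.291 in T10, 0.345 in T20 and 0.335 in T40, and 0.341 in T80, 0.428 in T160 and 0.412 in T320. It was highest in C and stayed between 0.291 and 0.428 from T5 on, so that S100A10 ran below ANXA2 in every population and further below it at the higher doses. The other known pair, S100A11 and ANXA1, had an r of -0.07.

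Among the 15 pairs of S100A genes the r ranged between -0.60 (S100A4 with S100A6) and 0.96 (S100A11 with S100A13), with a median of 0.46. Among the 6 pairs of annexins it ranged between 0.01 and 0.49, with a median of 0.20. ANXA3 had an r of 0.91 with S100A16 and 0.13 with ANXA2, so that its course was nearer to an S100A gene on another chromosome than to the most abundant annexin. All 6 S100A genes and ANXA2 had their largest upward step into T20, where the log2 difference from T10 ranged between 0.58 (S100A4) and 1.63 (S100A6) and was 1.04 for ANXA2.

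The genes outside the list with the most similar course were taken from 3749 genes with a mean of at least 50 CPM, 3 for each member. NMNAT2, an enzyme of NAD synthesis, was nearest to S100A4 with an r of 0.972 and BMP7 was next (0.964). SF3B5, a splicing factor subunit, was nearest to S100A6 (0.925). NDUFS5 was nearest to S100A10 (0.952), CD82 to S100A11 (0.980), DAD1 to S100A13 (0.961) and MAP7D1 to S100A16 (0.971). Among the annexins, MRPS12 was nearest to ANXA3 (0.965), MAP1LC3B to ANXA5 (0.902), RPSA to ANXA2 (0.857) and TRAK1 to ANXA1 (0.803). Of the 18 genes named by this rule for the S100A members 6 lie on chromosome 1, as do 1 of the 12 for the annexins and 12% of the candidates with a position.

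Since the S100A genes share a region and the annexins do not, their neighbours were measured as well. Of 52 other genes of the matrix within 1 Mb of an S100A member, 50 were tested, 13 fell and 0 rose. Over all 1163 tested genes of chromosome 1, 28.2% fell and 1.72% rose by the same test, against 8.99% and 8.03% of all tested genes. Those that fell include S100A1, SLC39A1, a zinc transporter, TPM3, a tropomyosin, and ILF2, an RNA-binding protein. SLC39A1 had 64.75 CPM in T320 and 232 in C (adjusted p = 0.00330 by edgeR), and TPM3 had 78.55 in T320 and 273 in C (adjusted p = 0.00844 by edgeR). CHTOP, 2.62 kb beyond S100A13, had 106 CPM in T320 and 98.5 in C.

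The neighbours that reached the minimum had a median difference between T320 and C of -0.67 (27 genes, 33.3% lower by at least 1), beside -0.49 over the 533 measured genes of chromosome 1 (26.3% lower) and 0.20 over 4017 genes of the other chromosomes (9.61% lower). In T80 the medians were -0.82 near the S100A genes, -0.85 over chromosome 1 and -0.0354 elsewhere. The neighbours therefore lay close to the whole of chromosome 1, which lay below the other chromosomes. S100A4 (-3.99), S100A16 (-3.24), S100A13 (-2.03), S100A11 (-1.64) and S100A10 (-0.98) lay below that median in T320, and S100A6 (0.67) above it. Genes within 1 Mb of an annexin that reached the minimum numbered 1 or 2 for each, too few to describe.

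**Figure D3:**
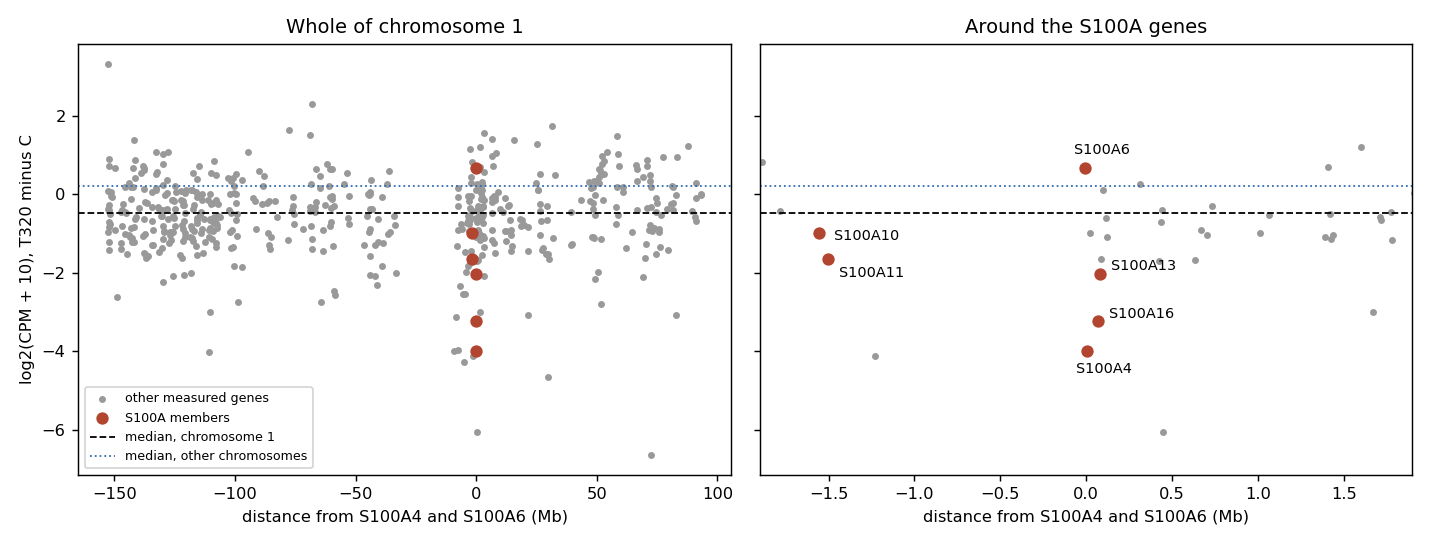
Difference in log2(CPM + 10) between T320 and C for measured genes of chromosome 1 against their distance from S100A4 and S100A6 in Mb, over the whole chromosome (left) and near the S100A genes (right). Red points are the S100A members, grey points other genes, the dashed line is the median of chromosome 1 (-0.49) and the dotted line that of the other chromosomes (0.20). S100A4 and S100A6 lie at the same place on the axis and at -3.99 and 0.67.

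Other S100 genes with a row were S100A1, S100A2, S100A3 and S100A5. S100A1 fell along the escalation (slope -0.33, adjusted p = 0.0118 by edgeR), with 12.03 CPM in T320 and 58.65 in C, in a span that overlaps S100A13. S100A2, which lies 11 kb from S100A4, had 112.5 CPM in T320 and 234.5 in C but 668 in T20, and its slope was 0.0051 (adjusted p = 0.978 by edgeR). S100A3, whose span lies within that of S100A4, and S100A5 were at 9.60 CPM or less in every population. Of the other annexins ANXA11 fell, with 162 CPM in T320 and 326 in C (adjusted p = 0.0335 by edgeR). ANXA6 had 354 CPM in T320 and 212 in C, and ANXA7 had 99.1 in T320 and 53.8 in C, both with adjusted p-values above 0.1.

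Known partners of the members were followed from lists that name them whatever their values. By edgeR 8.03% of all tested genes rose and 8.99% fell, and the counts that follow stand beside these shares. Among 13 tested partners of S100 proteins 2 fell, CACYBP, the S100A6 partner, and the tropomyosin TPM4, and 1 rose, the synaptic protein SYT1, which was listed at 0 in C and had 24.8 CPM in T320. CACYBP had 99.4 CPM in T320 and 290 in C (adjusted p = 0.0225 by edgeR). MYH9, the myosin heavy chain bound by S100A4, had 376 CPM in T320 and 385 in C. Among 15 genes of membrane repair 3 fell (CAPNS1, EHD1 and CHMP4A) and 1 rose: PDCD6IP, the ESCRT adaptor ALIX, had 174 CPM in T320 and 69.35 in C (adjusted p = 0.0124 by edgeR). CAPNS1, the small calpain subunit, had 394 CPM in T320 and 832.5 in C (adjusted p = 0.0257 by edgeR). Of 8 tested genes of plasminogen activation, the reaction that the S100A10 complex serves, 2 fell, ENO1, a plasminogen-binding glycolytic enzyme, and CTSB, the protease cathepsin B. Among the partners that fell, CACYBP and ENO1 lie on chromosome 1, where 28.2% of tested genes fell. TPM4, CAPNS1, EHD1, CHMP4A and CTSB lie on other chromosomes. PLAU, the urokinase activator, had 256.5 CPM in T320 and 136 in C, and did not pass the threshold.

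The metadata deposited by the authors list 8240 of the 18209 cells and sort them into 6 States, named C and S1 to S5. The authors assigned the States to these same cells, so that differences between States are a description. S100A4 had 4455 CPM in State C, 3837 in S1, 2279 in S2, 1548 in S3, 656 in S4 and 683 in S5. S100A6 had 1131 CPM in State C, 895 in S1, 1174 in S2, 2140 in S3, 1924 in S4 and 2039 in S5. S100A16 had 647.5 CPM in State C, 269 in S1, 86.2 in S2, 175 in S3, 25.9 in S4 and 55.9 in S5. The decrease of S100A4 thus followed the States up to S4, whereas S100A16 was higher in S3 than in the States on both sides.

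States that occur in the same library can be compared without a change of library or dose. In T10, S100A4 had 700 CPM in S4 cells, against 1991 in S2 cells, and in T20 it had 929 in S4 cells, against 2554 in S2 cells. S100A16 had 172 CPM in S3 cells of T10 and 251 in those of T20, against 64.0 in S2 cells of T10 and 99.5 in those of T20. S4 cells held 8 UMIs of S100A16 in T10 (17.7 CPM, 7.63 to 34.8) and 2 in T20 (8.08 CPM, 0.978 to 29.2). S100A10 had 674 CPM in S3 cells of T10, against 228 in S2 cells, and ANXA2 had 2077 in S3 cells, against 1050 in S2 cells. In S2 cells of T2.5 and T5, S100A10 and S100A16 were lower than in S1 cells by 1.04 to 1.89 on the log2 scale.

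Counts of S100A genes that differed by at least 1 between States stand beside the shares over all measured genes. In S2 against S1, 3 were lower in T2.5 (3.3% of 4057 genes) and 2 in T5 (3.55% of 4165). In S3 against S2, 2 were higher in T10 (5.05% of 4476), S100A10 and S100A16, and 1 in T20 (5.54% of 4004). In S4 against S2, 1 was higher in T10 (4.35% of 4319), S100A10, while 2 were lower in T10 (5.19%) and 2 in T20 (6.59% of 4049), S100A4 and S100A16 both times. In S4 against S3, 1 was lower in T40 (5.14% of 4063), S100A16, whereas its difference in T80 was -0.81. In these comparisons with S4, S100A16 reached the minimum only through the earlier State, so that its place among the lower genes follows in part from the minimum. ANXA1, ANXA2 and ANXA5 stayed between -0.76 and 0.98 in the 8 comparisons, and ANXA3 was below the minimum level in all of them. The direction of S100A4 was the same in both libraries for each of the 4 pairs of States compared, and lower in the later State in all 8 comparisons. S4 cells of T10 held a mitochondrial share of 6.27%, against 8.94% in S2 cells, and the median UMIs per cell were 2170.5 and 1943.

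**Figure D4:**
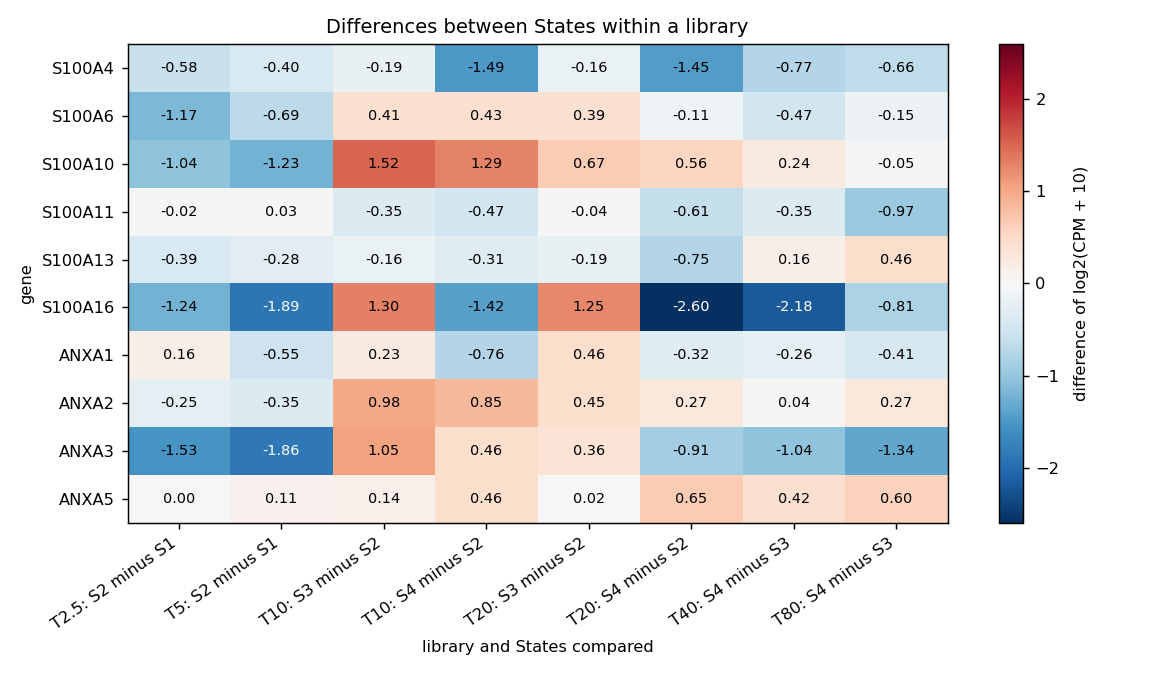
Differences in log2(CPM + 10) between States within a library, the later State minus the earlier, for the 10 genes (rows) in 8 comparisons (columns), with the colour running between blue (lower in the later State) and red (higher). S100A4 is blue throughout, S100A10 is red where S3 or S4 is set against S2, and S100A16 is red for S3 against S2 and blue for S4 against S2, S4 against S3 and S2 against S1.

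Cells listed with a State and the other cells of the same population were compared within each population. S100A4 was higher in the listed cells of all 10 populations, by 0.16 (T40) to 1.47 (T320) on the log2 scale, and had 388.5 CPM in the listed and 134 in the unlisted cells of T320. S100A6 was also higher in the listed cells of all 10, by 0.14 (T1) to 1.02 (T320). ANXA1 was higher in the listed cells of 9 of the 10 populations, with differences of -0.06 to 0.69, and ANXA2 in 9 of the 10, with differences of -0.0087 to 0.35. S100A13 was higher in the listed cells of 7, ANXA5 of 6, S100A11 of 5, and S100A10, S100A16 and ANXA3 of 3 populations each. The listed share was 42% of the cells in T320 and 24.6% in C, and with listed cells alone S100A4 in T320 was lower than in C by 3.49 on the log2 scale in place of 3.99. Listed cells had a median of 5946 UMIs in C and 1934 in T320, against 2247 and 1851.5 over all cells of these populations. The list of cells bears the label g1. A part of depth or of the cell cycle in these differences was not tested.

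To set shares of cells side by side, each cell was thinned to 1000 UMIs and shallower cells were left out, 243 of 1334 in T320 and 365 of 1845 in C. At that depth 18.7% of T320 cells (16.4 to 21.1, exact binomial 95% interval) and 93.85% of C cells (92.5 to 95.02) held an S100A4 UMI, and without thinning 24.9% and 98.6%. For S100A6 the shares were 67.7% in T320 and 59.6% in C, for ANXA2 86.0% in T320 and 91.5% in C, and for ANXA3 0.733% in T320 and 6.28% in C. The line holds no cell type that should lack these genes, so that a share from free RNA was not measured. The variance of thinned S100A4 counts over their mean, which is 1 for counting noise alone, was 1.78 in C, 2.35 in T1, 2.16 in T2.5 and 2.93 in T5, then 1.95 in T10, 2.82 in T20 and 1.74 in T40, and 1.98 in T80, 1.64 in T160 and 1.85 in T320. This ratio was highest in T5 and T20. Where cells differ, it also depends on the mean, which was 3.77 thinned UMIs per cell in C, 2.45 in T5, 2.13 in T20 and 0.279 in T320. The ratio therefore does not rank the populations by relative spread between cells.

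**Figure D5:**
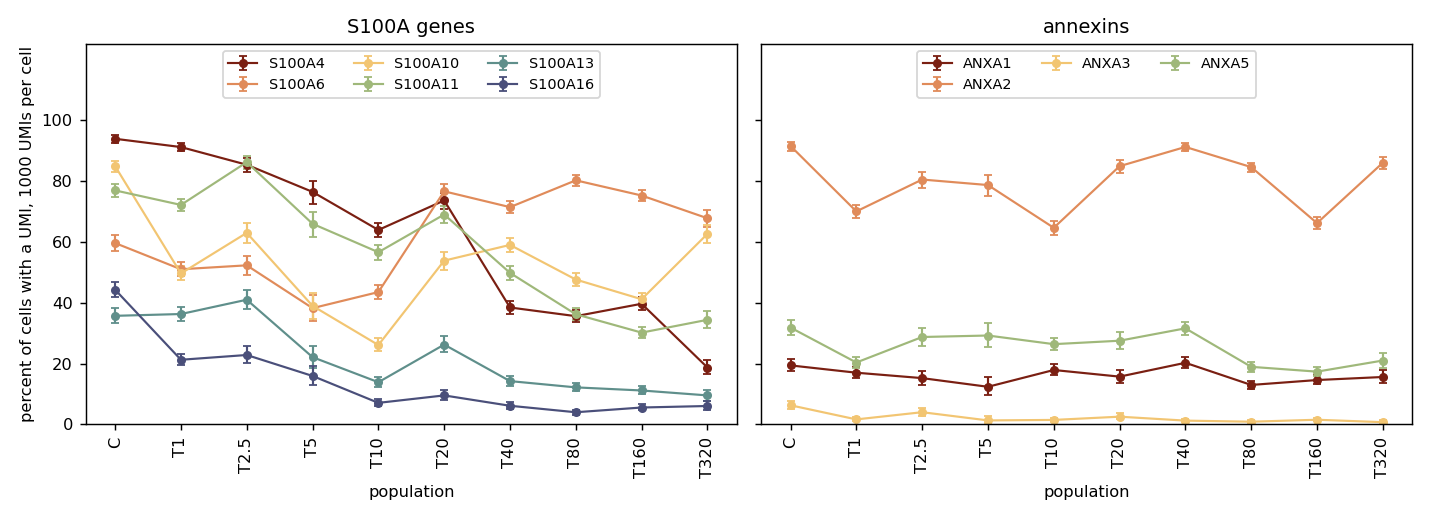
Percent of cells with at least 1 UMI of each S100A gene (left) and annexin (right) after thinning to 1000 UMIs per cell, with exact binomial 95% intervals that cover counting error only. S100A4 is found in 18.7% of T320 cells and 93.85% of C cells, and S100A6 in 67.7% of T320 cells and 59.6% of C cells.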

How the data were processed

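Untreated Kuramochi cells and cells at 9 olaparib doses were profiled by inDrop, with 1 library for each population. The authors deposited a matrix of raw UMI counts (12373 genes, 18209 cells) and a table of cells, whose columns hold counts (UMIs, genes) and, for mitochondrial UMIs, a fraction of the cell's total. Per the submitters' processing notes, the builds are hg38 and GRCh38 and Seurat 2.3.2 was used. The aligner, gene annotation, use of strand in counting, cell filters and assignment of States were not given in the sources used here. All 8240 listed cells were matched by population and barcode with identical UMI totals (the 918 of T40 bear other names in the table). Each population listed 1107 to 1901 genes at 0, and such a value is not read as an absence.

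For each population the counts of its cells were added and scaled to CPM. Differences are of log2(CPM + 10), and a gene was measured in a comparison with at least 100 UMIs in all and 50 CPM in either population. Intervals are exact Poisson, conditional binomial or Clopper-Pearson at 95% and cover counting error only. The slope per step was tested with edgeR 4.0.16 (quasi-likelihood, TMM, 8 residual degrees of freedom) in R 4.3.3. On simulated data the test recovered 1 of 100 genes with a 2-fold and 46 of 100 with a 4-fold total change, with 1 false call. No doublet caller was run and no cell was left out of the sums. States with at least 50 cells in a library were compared. Alternatives were DESeq2 1.42.0, limma 3.58.1, other scalings, filters and cells, and each population left out. Positions and transcript ends came from GENCODE 29, which placed 12202 genes, and promoter windows from RefSeq, which held all 10 members.

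The members and gene lists were chosen with earlier results of these data known. The text names every member, the 3 genes most like each, neighbours within 1 Mb, and up to 4 genes of each list by their T320 difference, leaving out clone names. SYT1, EHD1, CHMP4A, CTSB, GCA, CAPS, CALM3, EFHD2, PPP3R1, ITPR3, ATP2B4, MYH9, S100A3, S100A5, COL3A1, EPCAM, MUC16 and H3F3A fall outside that rule and were named after their values were seen. Some genes that the rule selects are not reported here. P-values rest on the scatter of the populations about a straight line over the steps. That scatter mixes any curved course with variation between libraries, and no replicate library separates them.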

Additional observations from a re-analysis of the deposited data

How the results depend on the processing

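The number of S100A genes that fell stayed within 1.5 times the reported 4, and 0 rose, under the 19 alternatives of the trend. No paired analysis was possible because each population is 1 library with no replicate number. All genes counted 1501 that rose and 1694 that fell with DESeq2, and 410 and 517 from C to T80, where S100A11 missed the threshold. Leaving out 1 population each time gave 488 to 981 that rose and 537 to 1061 that fell, 0 or 1 annexin that fell, and adjusted p-values of 0.00206 to 0.00651 for S100A4, 0.00385 to 0.0232 for S100A11 and 0.00844 to 0.0517 for ANXA3. It was T320 whose absence gave the fewest calls, and the absence of C took the annexin away. The cause was not tested.

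Slopes that changed sign belonged to genes that never passed the threshold. ANXA2 had 0.0113 with library-size scaling, -0.0324 (without T1) to 0.0526 (without C) with 1 population left out, 0.0203 without T160, 0.0146 from C to T80 and 0.0099 with listed cells, and ANXA1 had 0.0119 from C to T80 and 0.0112 with listed cells.

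The S100A sum in T80 differed from C by -1.29 and the annexin sum by -0.49 (log2). These became -1.27 and -0.46 with listed cells, -1.35 and -0.63 with the mean of per-cell CPM, -1.34 and -0.55 without mitochondrial genes, and -1.23 and -0.45 without genes that share sequence, a setting that drops S100A13. In T320 the S100A sum was at -1.44 and the annexin sum at -0.16. TMM gave -1.73 and -0.45, DESeq2 size factors -1.68 and -0.40, listed cells -1.25 and -0.0225, the per-cell mean -1.54 and -0.36, and the absence of mitochondrial genes -1.51 and -0.23. Without genes that share sequence the annexin sum was at -0.22. The smallest member, ANXA3, is limited by depth. Thinning to 700 UMIs lowered shares of cells by construction, and a minimum of 20 cells per State changed nothing, since the smallest State in a library had 72 cells.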

Other observations

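Other calcium-handling genes, which the comparisons above do not use, moved in both directions. Of 20 other EF-hand calcium sensors tested, 3 rose along the escalation (NUCB2, CETN3 and GCA) and 5 fell (PEF1, CAPS, CALM3, EFHD2 and PPP3R1), beside 8.03% and 8.99% of all genes, by edgeR's quasi-likelihood test. PEF1 and EFHD2 lie on chromosome 1, where 28.2% of tested genes fell, and CAPS, CALM3 and PPP3R1 lie elsewhere. NUCB2, the precursor of nesfatin, rose, with 76.4 CPM in T320 and 18.0 in C (adjusted p = 0.00901 by edgeR), and so did CETN3, a centrin of the centrosome, with 61.2 in T320 and 16.6 in C (adjusted p = 0.00705). PEF1, a penta-EF-hand protein, fell, with 54.1 CPM in T320 and 186 in C (adjusted p = 0.00272 by edgeR).

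Of 15 calcium pumps and channels 1 rose, ITPR3, and 1 fell, ATP2B4, beside the same 8.03% and 8.99% of all genes. ATP2B4 also lies on chromosome 1, where 28.2% of tested genes fell. ITPR2, a receptor channel that releases calcium from the endoplasmic reticulum, had 380 CPM in T320 and 53.8 in C, the largest difference of that list at 2.61 on the log2 scale, but its adjusted p was 0.0975 by edgeR, and 20.4% of the 31-mers at its transcript ends occur in other genes. VDAC1, the mitochondrial outer membrane channel, had 393 CPM in T320 and 1009 in C.

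FLG, the filaggrin gene 254 kb from S100A11, was the only tested gene of the epidermal differentiation list. It had 163.5 CPM in C and 12.9 in T80 and was listed at 0 in T160 and T320, and its slope missed the threshold (adjusted p = 0.0697 by edgeR). WT1 was listed at 0 in T160 and T320 as well, with 14.2 CPM in T80. Whether genes were counted alike in these libraries was not tested, so that the zeros are not read as a loss of expression.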
